A study of Mus musculus with 16 samples.

Results

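The genes described here belong to mitochondrial fuel oxidation outside the electron transport chain, with some linked cytosolic and membrane enzymes: pyruvate entry, the tricarboxylic acid (TCA) cycle with its side branches, and fatty acid oxidation. They were chosen as a list of 38 gene symbols, all of which were present among the 23337 symbols of the count table, and 35 of them were among the 9213 genes with enough reads to be tested. Bulk RNA-Seq was carried out on neutrophils isolated from blood of 8 week old C57/Bl6 mice by magnetic negative selection and cultured for 2 h. All mice carried Ltbr fl/fl. LTβRΔN mice also carried Mrp8-Cre with GFP, in which the S100A8 (Mrp8) promoter drives the recombinase in neutrophils, and controls were littermates without Cre. Controls gave 3 libraries labelled unstimulated and 4 labelled stimulated, and LTβRΔN mice gave 4 and 5.

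The culture protocol lists 3 cytokines, with TNF and GM-CSF each given at 100 ng/ml and IL-6 given at 50 ng/ml, and a further addition of the LTβR ligand LIGHT (500 ng/ml) to some cultures, whereas the design text names the cytokines themselves as the treatment. Because the label of each library says only stimulated or unstimulated, groups are called by that word and no effect of LIGHT can be read from them. Nfkbia, an NF-κB target gene, was 30.4-fold higher in stimulated libraries over both genotypes (log2 fold change 4.92 ± 0.14, SE; adjusted p = 1.35e-17, edgeR). Nothing in the labels says whether libraries of one group came from separate mice, so p-values measure the spread between these libraries, which may in part be technical.

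Totals lay between 1094335 and 11932653 counts per library and were lowest in median among stimulated LTβRΔN libraries (2408608). Ltbr was measured at 84.6 to 154 CPM (read counts scaled to each library's total, adjusted by TMM factors) in the 7 control libraries and at 0.705 to 18.1 CPM in the 9 LTβRΔN libraries, and the genotypes did not overlap. The 7 neutrophil markers found in the table summed to 44400 to 74900 CPM in every library. The 5 monocyte markers found in the table summed to 341 to 561 CPM in unstimulated and 357 to 456 CPM in stimulated libraries. Of these, Ccr2 and Cx3cr1 were at 0 in every group but unstimulated LTβRΔN. Ms4a4c was at 0 in every group but unstimulated controls. B cell markers summed to at most 1.6 CPM. Markers of immature neutrophils were highest in library 82 of stimulated controls (770 CPM against 40.8 to 233 CPM in unstimulated libraries), with Elane and Mpo at 0. Platelet markers summed to 170 CPM in library 82 and 39.1 CPM in library 80, against 5.19 to 21.1 CPM in unstimulated libraries. In 3 stimulated libraries more than 10% of the tested genes had 0 counts (14.5% in control library 80, 14.8% and 12.6% in LTβRΔN libraries 77 and 78), against 3.02% to 9.05% in the other 13. The index code in the sample titles was S520 in 6 of 7 unstimulated libraries and S521 in the remaining one and in all stimulated libraries.

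Pyruvate enters the mitochondrial matrix as fuel for the pyruvate dehydrogenase complex, whose product acetyl-CoA is joined to oxaloacetate by citrate synthase and oxidized around the TCA cycle. Fatty acids reach the matrix as carnitine esters and are shortened by β-oxidation, which passes electrons through the electron transfer flavoprotein to the respiratory chain. One branch leaves the cycle in activated myeloid cells: Irg1 (also named Acod1) decarboxylates the cycle intermediate cis-aconitate to itaconate, a metabolite that inhibits succinate dehydrogenase. Mature neutrophils contain few mitochondria and derive most of their ATP from glycolysis.

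With all libraries in the edgeR fit, Irg1 was the only one of the 35 tested genes that passed the test in any comparison. Its promoter is shown beside those of citrate synthase (Cs) and mitochondrial malate dehydrogenase (Mdh2), genes of the cycle that did not pass, as the 250 bases before the RefSeq start site on the + strand of GRCm38.p6. The windows are chr14:103046762-103047011 for Irg1, chr10:128337477-128337726 for Cs and chr5:135778399-135778648 for Mdh2, and capitals mark matches to the motifs GGAAATTCC and TATAAA on either strand.
Irg1: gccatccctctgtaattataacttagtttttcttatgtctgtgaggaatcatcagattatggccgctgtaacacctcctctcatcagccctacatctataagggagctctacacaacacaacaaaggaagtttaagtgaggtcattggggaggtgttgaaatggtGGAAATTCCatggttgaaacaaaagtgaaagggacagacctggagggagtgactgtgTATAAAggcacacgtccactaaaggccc
Cs: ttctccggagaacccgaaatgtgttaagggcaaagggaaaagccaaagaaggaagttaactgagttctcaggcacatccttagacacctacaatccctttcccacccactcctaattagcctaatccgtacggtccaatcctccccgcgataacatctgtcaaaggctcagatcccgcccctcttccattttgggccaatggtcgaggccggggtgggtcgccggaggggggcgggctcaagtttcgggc
Mdh2: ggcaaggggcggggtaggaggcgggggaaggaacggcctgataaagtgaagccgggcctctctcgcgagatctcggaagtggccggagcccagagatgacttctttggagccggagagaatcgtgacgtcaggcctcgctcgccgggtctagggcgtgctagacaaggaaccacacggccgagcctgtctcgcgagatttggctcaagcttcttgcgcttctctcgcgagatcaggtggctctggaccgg

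The Irg1 window held TATAAA at 28 to 23 bases and GGAAATTCC, a variant of the NF-κB site, at 85 to 77 bases before the start. Both motifs were added after the Irg1 window had been read, so their presence there is a description only. TATAAA occurred in 12.4% and GGAAATTCC in 0.286% of 32841 mouse promoter windows of the same length, and each was found in 1 of the 42 windows of the 35 genes of the list that have one. The motifs searched first were the STAT site TTCNNNGAA, the AP-1 site TGANTCA, the C/EBP site TTGCNNAA and the NF-κB consensus, which occurred in 7.02%, 6.75%, 9.57% and 7.25% of all windows. They were found in 3, 0, 4 and 7 of the 42 windows, and in none of the 3 windows shown. The annotated Irg1 gene spans 103046977 to 103056573 on chromosome 14 in GENCODE M21 and so begins upstream of the RefSeq start. It also begins upstream of the TATAAA match, so the distances given hold for the RefSeq start only.

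Irg1 transcripts were present in every library and were more abundant in stimulated neutrophils of both genotypes. In unstimulated control neutrophils Irg1 was at 556, 261 and 663 CPM, and in stimulated control neutrophils at 3410, 2640, 4350 and 2610 CPM. In unstimulated LTβRΔN neutrophils it was at 833, 576, 581 and 647 CPM, and in stimulated LTβRΔN neutrophils at 3010, 4100, 3040, 2850 and 2960 CPM. The stimulated libraries of both genotypes all lay above all unstimulated libraries. Treatment groups did not overlap for 1 of the 35 genes in controls, beside 12.7% of all tested genes. In LTβRΔN neutrophils they did not overlap for 2 of 35, beside 7.28%. Irg1 was 6.6-fold higher with stimulation in control (log2 fold change 2.72 ± 0.25, SE; adjusted p = 5.23e-08) and 4.84-fold higher in LTβRΔN neutrophils (2.27 ± 0.21; adjusted p = 6.81e-08, edgeR's quasi-likelihood test with Benjamini-Hochberg adjustment over 9213 genes). Over both genotypes the log2 fold change was 2.50 ± 0.17 with an adjusted p of 7.58e-11. In bulk RNA a change in the number of expressing cells and a change in RNA per cell cannot be told apart.

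The index code nearly follows the treatment label, and in LTβRΔN libraries the treatment and the index cannot be told apart. Among S521 libraries alone, library 73 is the only unstimulated control, and Irg1 differed by a log2 fold change of 2.29 in controls (adjusted p = 5.77e-05, edgeR), a value that takes the spread from the stimulated groups and assumes that library 73 varies like them. With the index as a covariate the estimates were 2.29 in controls (adjusted p = 0.000457) and 1.58 in LTβRΔN neutrophils, where the call was lost (adjusted p = 0.0803). These estimates also rest on library 73, the only S521 library among the unstimulated ones. The monocyte marker sums given above overlapped between unstimulated and stimulated libraries. Ccr2, Cx3cr1 and Ms4a4c were at 0 in both stimulated groups. In unstimulated libraries, Ccr2 and Cx3cr1 were also at 0 in controls and Ms4a4c in LTβRΔN, so none of them differed between labels in both genotypes by this measure. A part of other cells in the Irg1 difference was not tested. Without library 82, which held the highest Irg1 value and the highest immature neutrophil and platelet marker sums, Irg1 differed by 2.55 in controls (adjusted p = 1.58e-07).

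**Figure D1:**
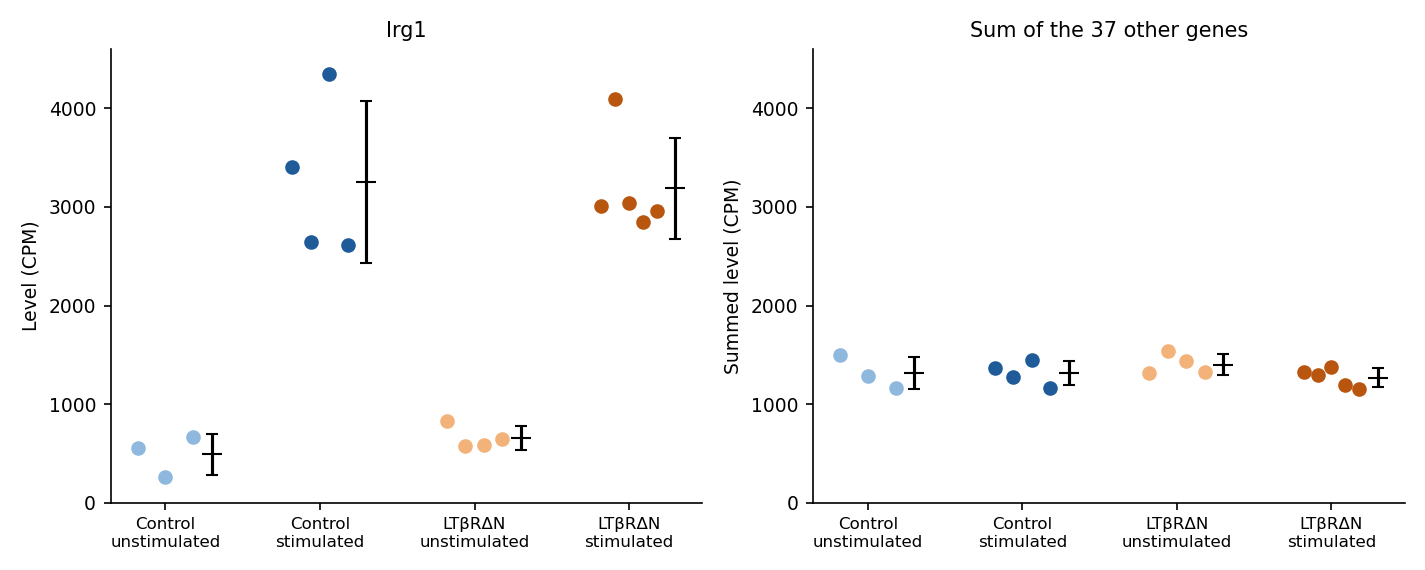
Level of Irg1 (left) and the summed level of the 37 other genes (right) in CPM, with 1 point per library, and the mean and SD of each group beside the points (n = 3, 4, 4 and 5 from left to right). Irg1 lies at 261 to 833 CPM in unstimulated and 2610 to 4350 CPM in stimulated libraries, while the 37 other genes sum to between 1149 and 1536 CPM in all 16 libraries.

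Irg1 made up 16.9% to 38.8% of the reads of the 38 genes in unstimulated libraries and 67.4% to 76% in stimulated libraries. The 37 other genes together were at 1316 ± 165.7 CPM (SD, n = 3) in unstimulated and 1314 ± 123.6 CPM (n = 4) in stimulated control neutrophils. In LTβRΔN neutrophils they were at 1402 ± 105.1 CPM (n = 4) without and 1268 ± 96.26 CPM (n = 5) with stimulation. These sums overlapped between all 4 groups. Per kilobase of exon, Irg1 had the highest mean level of the tested list (788 CPM per kb, above 99.1% of all tested genes), followed by Mdh2 (86.4) and the NAD-dependent isocitrate dehydrogenase subunit Idh3g (35.1). The lowest were the fumarase gene Fh1 (0.66 CPM per kb), cytosolic aconitase Aco1 (0.647), the NADP-dependent isocitrate dehydrogenase Idh2 (0.513) and the catalytic isocitrate dehydrogenase subunit Idh3a (0.0999). Their neighbours in this order were often closer than the libraries' spread: Cs was at 13.1 ± 4.55 CPM per kb and Acadl at 12.5 ± 6.50 CPM per kb in unstimulated controls.

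Of the 35 tested genes, 1 passed in the comparison of stimulated with unstimulated controls, where 3.48% of all tested genes passed. In LTβRΔN neutrophils it was likewise 1 of 35, against 3.73% of all tested genes, and over both genotypes 1 of 35, against 6.73%. That gene was Irg1 each time, also by DESeq2. Counting unadjusted p-values under 0.05 from edgeR, there were 3 of the 35 in controls (Irg1, Idh3a and Idh3g), 2 in LTβRΔN neutrophils (Irg1 and Idh2) and 2 over both genotypes (Irg1 and Idh3a), beside 11.4%, 13% and 16.8% of all tested genes. The 34 tested genes other than Irg1 had a median log2 fold change of -0.12 in controls, -0.11 in LTβRΔN neutrophils and -0.12 over both genotypes, beside medians of -0.02, -0.03 and -0.04 over all tested genes. Over both genotypes 13 of the 34 estimates were above 0, beside 46.2% of all tested genes, and this count was 8 with upper-quartile scaling and 3 with library totals alone. For 22 of the 34 the 95% interval lay entirely within a 2-fold change in either direction, and for 11 entirely within 1.5-fold. The intervals of the remaining 12 genes reached past 2-fold and so do not exclude a change of that size.

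**Figure D2:**
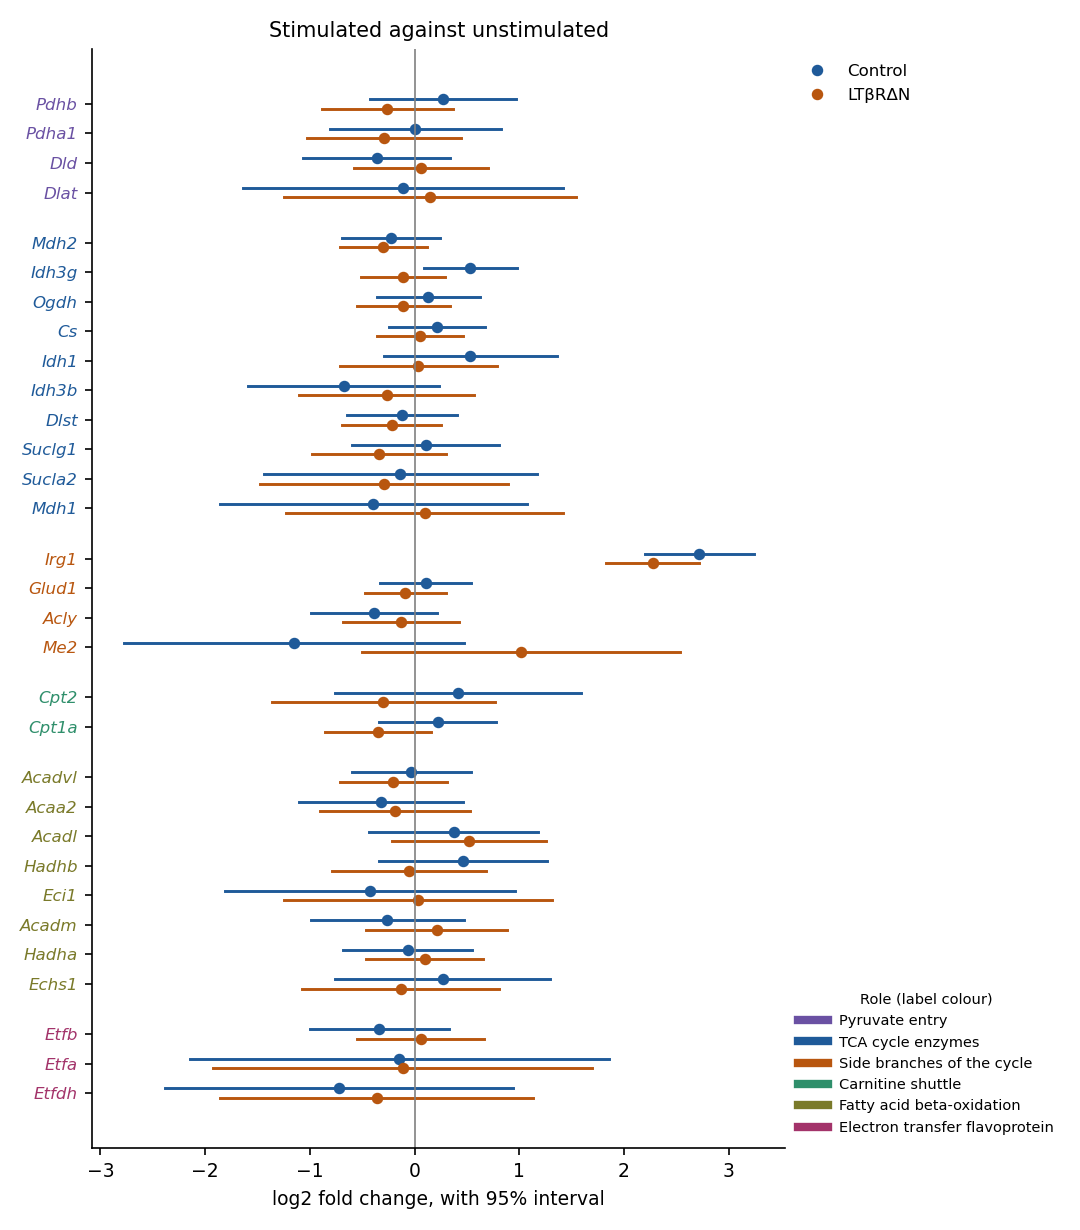
Log2 fold change of stimulated against unstimulated libraries (x axis) with its 95% interval, in control (blue) and LTβRΔN (orange) neutrophils, for the 31 tested genes with a mean of at least 30 counts per library, ordered by role and then by level per kb. Irg1 stands at 2.72 and 2.27, and the intervals of the other genes include 0 except that of Idh3g in controls.

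Among genes of pyruvate entry, 0 of 4 tested passed by edgeR in either genotype, with 0 at an unadjusted p under 0.05, and their median log2 fold change over both genotypes was -0.07. Pdhb, the β subunit of the decarboxylating component of pyruvate dehydrogenase, was at 41.5, 46.7 and 31.4 CPM in unstimulated and 62.8, 45.6, 53.5 and 30.6 CPM in stimulated controls, and the ranges overlapped. LTβRΔN neutrophils had 34.5, 45.6, 57.3 and 66.5 CPM without and 31.8, 34.9, 31, 84.9 and 31 CPM with stimulation, where 1 library (78) stood above the other 4. Over both genotypes its log2 fold change was 0.01 ± 0.23 and turned to -0.20 without library 78. Dlat, the acetyltransferase of the complex, differed by 0.02 ± 0.49 and Dld, the lipoamide dehydrogenase shared with the oxoglutarate complex, by -0.15 ± 0.23. Pcx, encoding pyruvate carboxylase, which makes oxaloacetate, had 0 counts in all 16 libraries, which allows a level of up to 0.0304 CPM (3 counts over all libraries, counting error only).

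Within the TCA cycle, 0 of 14 tested enzymes, among them cytosolic Aco1, Idh1 and Mdh1, passed by edgeR in any comparison between treatment labels. Cs, which encodes the enzyme that starts the cycle, was at 53.1, 105 and 69.9 CPM in unstimulated and 91.9, 87.3, 66.3 and 107 CPM in stimulated controls. Its level in LTβRΔN neutrophils was 80, 88.8, 74.2 and 57.6 CPM without and 81.6, 81.6, 66.2, 76.3 and 80.2 CPM with stimulation. The ranges overlapped in both genotypes, and the log2 fold change was 0.13 ± 0.15 over both (95% interval -0.18 to 0.44; adjusted p = 0.754, edgeR). Ogdh, a subunit of the oxoglutarate dehydrogenase complex, differed by 0.01 ± 0.16 and Dlst, its succinyltransferase, by -0.17 ± 0.17. The interval of Ogdh was -0.32 to 0.35.

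Mdh2, which regenerates oxaloacetate, had the highest level of the list after Irg1. It was at 451, 261 and 194 CPM in unstimulated and 284, 183, 366 and 200 CPM in stimulated controls, with wide overlap. In LTβRΔN neutrophils it was at 356, 367, 422 and 336 CPM without and at 320, 308, 317, 286 and 272 CPM with stimulation. All 5 stimulated LTβRΔN libraries thus lay below all 4 unstimulated ones, and 7.28% of all tested genes likewise had groups that did not overlap in this comparison. The log2 fold change was -0.23 ± 0.23 in controls, -0.30 ± 0.20 in LTβRΔN neutrophils (adjusted p = 0.616) and -0.26 ± 0.15 over both genotypes (adjusted p = 0.413). Scaled by library totals alone, without TMM factors, Mdh2 passed over both genotypes at -0.48 (adjusted p = 0.0377), while the median of all genes moved from -0.04 to -0.25.

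Isocitrate is converted to oxoglutarate by the NAD-dependent isocitrate dehydrogenase, whose subunits are encoded by Idh3a, Idh3b and Idh3g, and none of the 3 passed with all libraries. Idh3g was at 88.7, 86.2 and 78.3 CPM in unstimulated and at 138, 128, 144 and 78.7 CPM in stimulated controls, so that 3 of 4 stimulated libraries lay above the unstimulated range. Idh3g in LTβRΔN neutrophils was at 84.8, 114, 82.8 and 76.8 CPM without and 77.9, 61.6, 108, 85.8 and 81.4 CPM with stimulation, and the ranges overlapped. The log2 fold change was 0.53 ± 0.22 in controls (adjusted p = 0.284) and -0.11 ± 0.19 in LTβRΔN neutrophils, and the difference between these changes was -0.64 ± 0.29 (adjusted p = 1, edgeR).

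Idh3b, also a regulatory subunit, was at 32.3, 30.9 and 23.2 CPM in unstimulated controls and at 39.3, 15.7, 10.1 and 7.12 CPM in stimulated controls. Library 80, with 14.5% of tested genes at 0, held the high value, and the 3 other stimulated libraries lay below the unstimulated range. With all libraries the log2 fold change was -0.68 ± 0.44 (adjusted p = 0.667), and without library 80 it was -1.41 ± 0.38 and passed the test (adjusted p = 0.0398). Over both genotypes it was -0.47 ± 0.30 (adjusted p = 0.479) and -0.84 ± 0.24 without library 80 (adjusted p = 0.0406). When libraries 77 and 78 were left out as well, Idh3b passed in controls (-1.41; adjusted p = 0.0313) and did not pass over both genotypes (-0.82; adjusted p = 0.058). In LTβRΔN neutrophils Idh3b was at 19.8 to 37.6 CPM without and 15.3 to 33.2 CPM with stimulation.

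Idh3a had 0 counts in all 7 unstimulated libraries and in 6 of 9 stimulated libraries. Its reads were confined to libraries 82 and 83 of stimulated controls, with 19 and 16 counts, and library 77 of stimulated LTβRΔN neutrophils, with 6 counts. It passed the filter on low counts only through these libraries. A floor of 3 counts over the unstimulated group covers the counting error of that group only. The summed level was 11.4-fold this floor in stimulated controls, from 2 of 4 libraries, and 3-fold in stimulated LTβRΔN neutrophils, from 1 of 5. These ratios leave out the counting error of the stimulated libraries and are not lower bounds. Idh3a did not pass the test (adjusted p = 0.0939 over both genotypes, edgeR), and the fitted fold change depends on the prior count. With Idh3a placed at these ratios the medians of the 34 genes remained at -0.12 and -0.11.

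**Figure D3:**
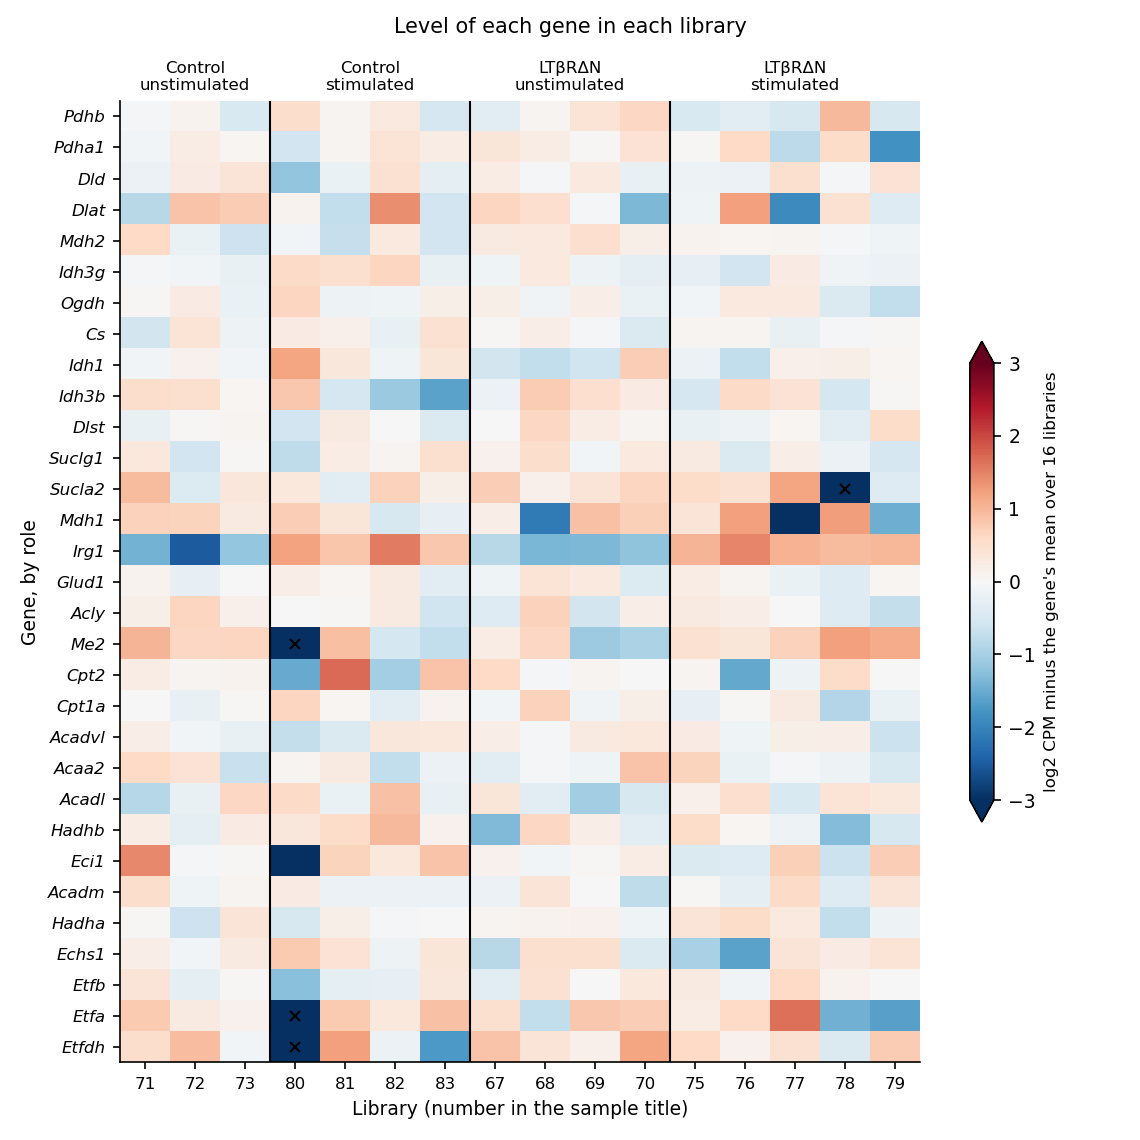
Level of the 31 genes with a mean of at least 30 counts in each library, as log2 CPM minus the gene's mean over the 16 libraries (colour, drawn from -3 to 3), with crosses where the count was 0. Irg1 separates the treatment labels, and library 80 has 3 crosses, at Me2, Etfa and Etfdh.

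The remaining isocitrate dehydrogenases are cytosolic Idh1 and mitochondrial Idh2, which make NADPH. Idh1 was at 17.9, 21 and 18.1 CPM in unstimulated and 43.4, 24.2, 17.5 and 24.8 CPM in stimulated controls, with a log2 fold change of 0.53 ± 0.40 (adjusted p = 0.752, edgeR). Idh2 was sparse, with 93, 0 and 2 counts in unstimulated controls and 3, 11, 23 and 21 counts in stimulated controls. In LTβRΔN neutrophils it had 11, 3, 4 and 4 counts without stimulation, and with stimulation 1 count in library 75 and 0 in the other 4. Those 4 libraries had totals of 1506153 to 8575222 counts. Over both genotypes the adjusted p of Idh2 was 0.414.

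Suclg1 and Sucla2, subunits of the succinyl-CoA synthetases, differed over both genotypes by -0.12 ± 0.23 and -0.22 ± 0.42. Suclg2 had 17 counts in library 78 and 0 in the other 15, and was not tested. Fh1 had at most 36 counts in a library, and its log2 fold change over both genotypes was -0.97 ± 0.95 (adjusted p = 0.707). Mdh1, the cytosolic malate dehydrogenase, differed by -0.15 ± 0.48 with an interval from -1.14 to 0.84, and Aco1 by -0.52 ± 0.91.

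Of the 4 genes of the side branches, Irg1 was the only one that passed. Acly, which cleaves exported citrate to acetyl-CoA in the cytosol, was at 55.4, 77 and 54.2 CPM in unstimulated and 49.5, 50.1, 58.4 and 32.5 CPM in stimulated controls. LTβRΔN neutrophils had 37, 78.4, 33 and 56.1 CPM without and 58.6, 56.2, 48.6, 37.3 and 29.4 CPM with stimulation. The groups overlapped, and the log2 fold change over both genotypes was -0.26 ± 0.20 (adjusted p = 0.602, edgeR). Glud1, which links glutamate to oxoglutarate, had one of the narrowest intervals of the list, from -0.28 to 0.30 around 0.01. Me2, the mitochondrial malic enzyme, was at 15.8, 12 and 12.2 CPM in unstimulated controls and at 0, 14.7, 5.25 and 4.49 CPM in stimulated controls. Its log2 fold change was -1.15 ± 0.78 in controls and -0.73 ± 0.56 without library 80, and 1.02 ± 0.73 in LTβRΔN neutrophils, and none of these passed the test.

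The carnitine shuttle carries long-chain fatty acids into the matrix, and 0 of its 2 genes passed by edgeR, with 0 at an unadjusted p under 0.05. Cpt1a, the outer membrane acyltransferase that controls entry, was at 48.5, 41.6 and 49.4 CPM in unstimulated and 75.8, 50.5, 38.7 and 51.7 CPM in stimulated controls. In LTβRΔN neutrophils it was at 45.9, 78.4, 44.8 and 54.6 CPM without and 41.1, 49.5, 58.5, 26 and 42.2 CPM with stimulation. The groups overlapped in both genotypes. The log2 fold change of Cpt1a was 0.22 ± 0.27 in controls and -0.35 ± 0.25 in LTβRΔN neutrophils, and the difference between the 2 was -0.57 ± 0.37 (adjusted p = 1, edgeR). Cpt2, the inner membrane enzyme, ranged from 5.54 to 53.9 CPM within stimulated controls against 17.3 to 19.2 CPM in unstimulated controls, and its log2 fold change over both genotypes was 0.06 ± 0.38.

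In β-oxidation, 0 of 8 tested genes passed by edgeR, with 0 at an unadjusted p under 0.05, and their median log2 fold change over both genotypes was -0.01 with a range of -0.25 to 0.45. The extremes were Acadl, the long-chain acyl-CoA dehydrogenase, at 0.45 ± 0.26 (adjusted p = 0.432), and Acaa2, the thiolase of the matrix, at -0.25 ± 0.26 (adjusted p = 0.721). Acadl was at 13.8, 21.8 and 39.3 CPM in unstimulated and 38, 22.1, 46.9 and 21.7 CPM in stimulated controls. In LTβRΔN neutrophils Acadl was at 32.8, 20, 12.2 and 18 CPM without and 28, 35.9, 18.3, 33.7 and 31.8 CPM with stimulation, and the ranges overlapped in both genotypes. Acadvl, the very-long-chain dehydrogenase, differed by -0.12 ± 0.18 and had the highest level per kb of this group (16.1 CPM per kb). Of its exon bases 42.9% overlap Dvl2 on the opposite strand, so part of its reads cannot be assigned if counting ignored strand, a setting not given in the sources used here. The subunits of the trifunctional protein, Hadha and Hadhb, differed by 0.02 ± 0.20 and 0.21 ± 0.26. Hadh, the short-chain hydroxyacyl-CoA dehydrogenase, had 2 counts in library 67 and 0 in the other 15, and was not tested.

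Among the genes of the electron transfer flavoprotein, 0 of 3 passed by edgeR, with 0 at an unadjusted p under 0.05. Etfb was at 40.7, 25.2 and 32 CPM in unstimulated and 12.8, 25.4, 26 and 39.2 CPM in stimulated controls, and the log2 fold change over both genotypes was -0.14 ± 0.22. Of the exon bases of Etfb 53.0% overlap Gm45233 on the same strand, a gene absent from the count table, unlike Dvl2. Etfdh, which passes the electrons on to ubiquinone, was at 12.4, 16.4 and 8.14 CPM in unstimulated and 0, 20.6, 7.53 and 2.37 CPM in stimulated controls, with the 0 in library 80. Etfdh in LTβRΔN neutrophils was at 15.6, 11.2, 9.51 and 19.9 CPM without and 13.1, 9.41, 12, 6.29 and 14.7 CPM with stimulation. Its log2 fold change over both genotypes was -0.54 ± 0.54 with all libraries and -0.33 ± 0.38 without library 80. Etfa also had 0 counts in library 80, and its control log2 fold change changed sign from -0.14 to 0.27 without that library.

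To ask whether loss of LTβR in neutrophils changed these genes, LTβRΔN libraries were compared with controls under each label. Only LTβRΔN mice carried the transgene with Cre and GFP, so loss of LTβR and presence of the transgene cannot be told apart. Of the 35 genes 0 passed in unstimulated neutrophils, where 0.0217% of all tested genes passed, and 0 had an unadjusted p under 0.05 by edgeR (2.8% of all tested genes). In stimulated neutrophils 0 of 35 passed (0.0217% of all tested genes), and 2 (Idh2 and Idh3g) had an unadjusted p under 0.05 (6.41%). Over both labels 0 of 35 passed (0.0326%), and 1, Idh2, had an unadjusted p under 0.05 (5.21%). DESeq2 called 0 of the 35 in each of these comparisons. The median log2 fold change of the 34 genes other than Irg1 was -0.003 in unstimulated, -0.07 in stimulated and 0.01 over both labels, beside -0.01 for all tested genes in each case. These comparisons share libraries with those between treatment labels.

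Irg1 itself was at a mean of 493.4 ± 208.1 CPM (SD, n = 3) in unstimulated control and 659.2 ± 120.1 CPM (n = 4) in unstimulated LTβRΔN neutrophils, with overlapping ranges. With stimulation the means were 3254 ± 819.3 CPM (n = 4) and 3192 ± 510.8 CPM (n = 5), also overlapping. The log2 difference between genotypes was 0.42 ± 0.23 without stimulation (95% interval -0.06 to 0.90; adjusted p = 1) and -0.03 ± 0.20 with stimulation (-0.44 to 0.39; adjusted p = 0.996, edgeR). The latter was above 0 with upper-quartile scaling (0.003) and without libraries 77, 78 and 80 (0.066). The change of Irg1 with stimulation differed between genotypes by -0.45 ± 0.30, with an interval from -1.08 to 0.18 and an adjusted p of 1.

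**Figure D4:**
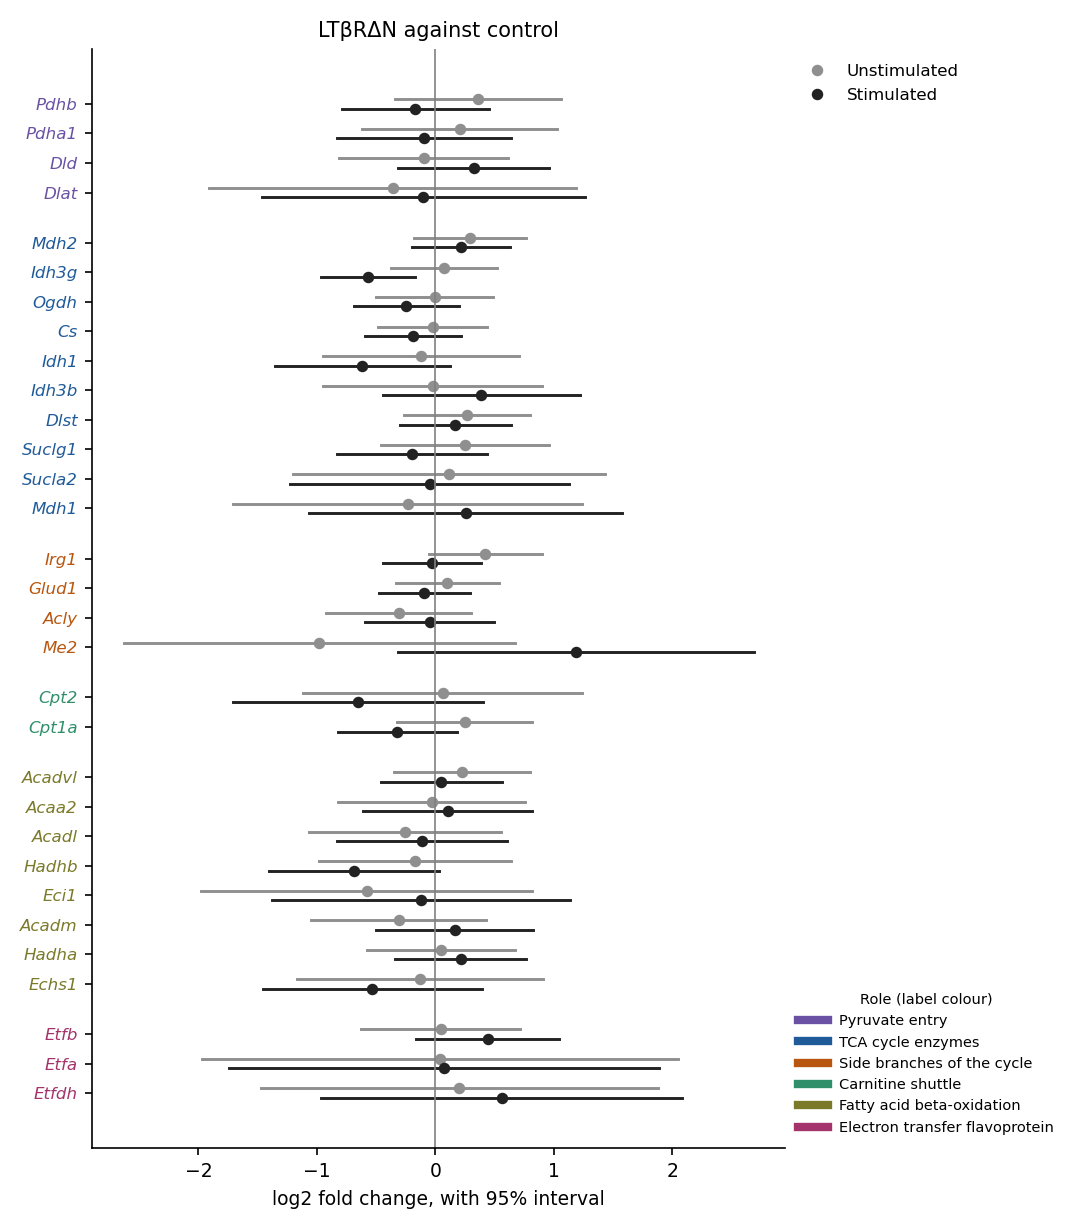
Log2 fold change of LTβRΔN against control libraries (x axis) with its 95% interval, in unstimulated (grey) and stimulated (black) neutrophils, for the 31 tested genes with a mean of at least 30 counts, ordered by role and then by level per kb. The intervals include 0 for each gene under both labels except Idh3g in stimulated neutrophils, at -0.57.

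The genotype difference of Idh3g was 0.07 ± 0.22 in unstimulated and -0.57 ± 0.19 in stimulated neutrophils (adjusted p = 0.636). Hadhb, the thiolase subunit of the trifunctional protein, was at 40.9, 47.7, 63.7 and 35.3 CPM in stimulated controls and at 48, 33.4, 28.9, 13 and 23.2 CPM in stimulated LTβRΔN neutrophils. It differed by -0.69 ± 0.34 (adjusted p = 0.773), and the ranges overlapped. Me2 was the only gene of the list whose unstimulated groups did not overlap, with 8.97, 12, 3.4 and 3.83 CPM in LTβRΔN against 15.8, 12 and 12.2 CPM in control neutrophils, so that they touched at 12 CPM. In that comparison 5.71% of all tested genes did not overlap. Its difference was -0.98 ± 0.80 (adjusted p = 1). In stimulated neutrophils 0 of the 35 had groups that did not overlap, where 1.31% of all tested genes did so. Cs differed between genotypes by -0.02 ± 0.22 and -0.19 ± 0.20, Cpt1a by 0.25 ± 0.27 and -0.32 ± 0.24, and Acly by -0.31 ± 0.30 and -0.05 ± 0.26, without and with stimulation.

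A test of whether the change between labels differed by genotype called 0 of the 35 genes and 0% of all tested genes by edgeR, and 1 of the 35, Idh3g, had an unadjusted p under 0.05 (3.71% of all tested genes). DESeq2 called 0 of the 35. For 7 of the 34 genes other than Irg1 the interval of this difference lay within 2-fold. Over both labels the genotype difference was bounded more closely, within 2-fold for 23 and within 1.5-fold for 13 of the 34.

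**Figure D5:**
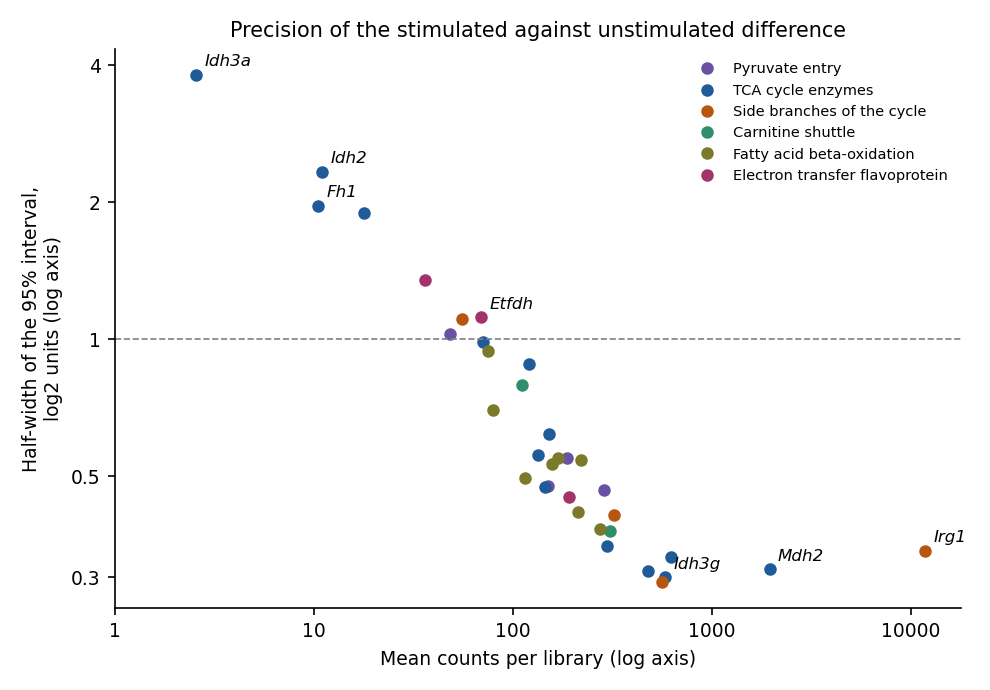
Half-width of the 95% interval of the stimulated against unstimulated difference over both genotypes (y axis, log2 units, log axis) against the mean counts per library (x axis, log axis) for the 35 tested genes, coloured by role. The dashed line marks 1, a 2-fold change, and the 24 genes with over 100 counts have a median half-width of 0.46.

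Precision followed the number of reads, as the plot of interval width against counts shows. The median half-width was 0.46 for the 24 genes with a mean of over 100 counts, 1.03 for the 7 genes with 30 to 100 counts and 2.15 for the 4 genes below 30 counts. The genes of lowest count were Idh3a, Fh1, Idh2 and Aco1, all of the TCA cycle list.

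Other genes of these pathways were examined as a wider list of 75 symbols, of which 73 were in the table and 49 were tested. In controls 0 of the 49 passed by edgeR (3.48% of all tested genes) and 7 had an unadjusted p under 0.05 (11.4%). In LTβRΔN neutrophils 1 passed (3.73%), Hif1a, which encodes a transcription factor that adapts metabolism to low oxygen. Hif1a was at 221, 229, 229 and 278 CPM without and 292, 381, 316, 381 and 322 CPM with stimulation in LTβRΔN neutrophils. These groups did not overlap, which held for 7.28% of all tested genes. The log2 fold change of Hif1a was 0.50 ± 0.12 (adjusted p = 0.019, edgeR). In controls its log2 fold change was 0.01 ± 0.14, and the difference between genotypes in this change did not pass (0.49 ± 0.19; adjusted p = 1). The Hif1a call was lost when any of 5 of the 9 LTβRΔN libraries was left out, with adjusted p-values up to 0.0826, with library totals alone, with the index as a covariate (0.27) and without libraries 77, 78 and 80, which makes 8 of 19 alternatives.

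Over both genotypes 2 of the 49 passed, beside 6.73% of all tested genes. Ppard, a nuclear receptor that switches on fatty acid oxidation genes, was at 3.27 to 5.6 CPM in unstimulated and 7.05 to 13.3 CPM in stimulated libraries, without overlap (log2 fold change 1.24 ± 0.36; adjusted p = 0.0346, edgeR). Crot, which transfers medium-chain acyl groups to carnitine in peroxisomes, was at 26.1 to 45.1 CPM in unstimulated and 7.73 to 31.1 CPM in stimulated libraries (-0.84 ± 0.25; adjusted p = 0.0498). Ppard lost its call in 13 of 24 alternatives and Crot in 18 of 25, and both lost it with the index as a covariate. Between genotypes 0 of the 49 passed by edgeR under either label, with 1 at an unadjusted p under 0.05 without (2.8% of all tested genes) and 3 with stimulation (6.41%).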

How the data were processed

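The deposited values are raw counts per gene symbol, as whole numbers in 1 table that the authors had not normalized. Per the labels, the submitters' processing notes list Bowtie 1.0.0, TopHat 1.4.1, HTSeq 0.7.1 and mm10, with no role or order, and the strand setting is not given in the sources used here. Libraries were single-end, made from amplified cDNA, and assigned to groups by genotype and treatment labels, with 0 columns left unmapped.

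Genes were kept by filterByExpr (minimum count 10, minimum total 15). All 16 libraries were fitted in 1 model with 1 coefficient per group by edgeR 4.0.16 (TMM factors, quasi-likelihood test) in R 4.3.3, and Benjamini-Hochberg adjusted p-values under 0.05 over all tested genes counted as passing. Standard errors and 95% intervals follow the test's p-value. CPM values use TMM factors, and lengths are merged exons of GENCODE M21 (GRCm38), which matched 97.8% of symbols. Promoters are from RefSeq. The test was checked on simulated counts with 200 changed genes, in the comparison of treatment labels over both genotypes. It recovered 15.5% of the genes changed 1.5-fold, 43.5% of those changed 2-fold and 65.5% of those changed 4-fold. A gene that did not pass can therefore still have changed. The changed genes were drawn from all tested genes at any read count. The filter kept 8880 to 8897 genes of the simulated counts, and changed genes that it removed counted as missed. These rates are thus not rates for the genes of the list, whose precision is given by their 95% intervals. For the 25 pairs of libraries within groups, chi-square divided by its degrees of freedom was 6.82 to 49.4, and no library was treated as a repeat of another.

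The genes, role lists and wider lists were chosen with earlier results of these data known. Genes named are those that passed, Cs, Irg1, Cpt1a and Acly, and for each role the gene of highest level per kb and of largest rise and fall. Aco1, Dlst, Etfa, Fh1, Glud1, Hadh, Hadha, Hadhb, Idh1, Idh3b, Idh3g, Mdh1, Me2, Ogdh, Pcx, Sucla2, Suclg1 and Suclg2 were named after their values were seen. Alternatives were other scalings and filters, DESeq2 1.42.0, the index code as a covariate, S521 libraries alone, the compared groups alone, a replicate block and each library left out in turn. Leaving out the 3 libraries with over 10% of tested genes at 0 was chosen after seeing the data.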

Additional observations from a re-analysis of the deposited data

Results flagged for a closer look

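In 53 sets of 4 or 5 libraries of 1 group, 7 held a library that stood apart from the others by Dixon's test at the 95% level. Chance gives about 2.65 for independent sets without ties, which these are not, so the 2 numbers cannot be compared. Where all other libraries had 0 counts, any count is flagged, and the means with and without Irg1 share nearly all their genes. Irg1 was at 4100 CPM in library 76 of stimulated LTβRΔN neutrophils against 2850 to 3040 CPM in the other 4. Pdhb was at 84.9 CPM in library 78 of the same group against 31 to 34.9 CPM. Idh3a was at 4.23 CPM in library 77 and Idh2 at 0.623 CPM in library 75 of that group, where the other 4 libraries had 0 counts of each gene. Idh2 was at 0.405 CPM in library 80 of stimulated controls against 2.28 to 2.62 CPM in the other 3. The mean log2 CPM over the tested genes of the list was 4.56 in library 68 of unstimulated LTβRΔN neutrophils, the library with the lowest total. It was 4.39 to 4.4 in the other 3 libraries of that group. Without Irg1 the mean was 4.43 in library 68 against 4.25 to 4.26. The part of depth in these values was not tested.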

How the results depend on the processing

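Irg1 kept its direction with stimulation in each alternative and passed in all but 1, the index code as a covariate in LTβRΔN neutrophils (1.58; adjusted p = 0.0803, leaving 0 genes of the list called). That covariate left 157, 79 and 147 of all genes called in controls, LTβRΔN neutrophils and over both genotypes, and 1 for the interaction, and S521 libraries alone left 153 in controls. Over both genotypes it turned the log2 fold changes of Dlat (-0.43), Mdh2 (0.49), Idh2 (1.35), Acadvl (0.13), Acadl (-0.46), Acaa2 (0.81) and Etfdh (0.17), none of them called. Scaling by library totals alone called 1230 genes over both genotypes (335 higher and 895 lower, against 444 and 176 with TMM factors, and in controls 201 and 272 against 260 and 61, in LTβRΔN neutrophils 216 and 293 against 275 and 69), 2 of them in the list, moved the control median of the other genes to -0.37, and turned Cs (-0.088), Pdhb (-0.21), Dlat (-0.21) and Cpt2 (-0.15). Upper-quartile scaling turned Pdhb (-0.032), Dlat (-0.031) and the stimulated genotype difference of Irg1 (0.003). Keeping every gene with a count turned Pdhb (-0.005) and called 4 genes between unstimulated genotypes, and requiring 10 counts in every library moved the control median to 0.12 and called 1 gene between genotypes under each label. DESeq2 called 4, 14 and 5 genes between genotypes in unstimulated, in stimulated and over both, 0 of them in the list. The cause of these shifts was not tested.

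Without the 3 libraries with over 10% of tested genes at 0, 2 genes of the list passed in controls (Irg1 and Idh3b), Pdhb turned (-0.27) and so did the stimulated genotype difference of Irg1 (0.066). With 1 library left out, 1 to 2 genes of the list were called with stimulation in controls and over both genotypes, the second being Idh3b without library 80. The counts of all genes called ranged from 2 to 6 between unstimulated genotypes, from 2 to 6 over both labels and from 0 to 2 for the interaction, each highest without library 71. Estimates over both genotypes ranged from -0.17 to 0.027 for Cpt1a, -0.20 to 0.089 for Pdhb, -0.34 to 0.15 for Dlat, -3.19 to 0.055 for Idh2 and -0.30 to 0.22 for Cpt2, and the stimulated genotype difference of Irg1 from -0.13 to 0.14.

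Numbers in the column names recur between treatment labels, but what they mark is not stated. Over 7 pairs of the same number the correlation of deviations was 0.021 to 0.069, against -0.049 to 0.03 over the other pairs within a genotype. Of the 7 unstimulated libraries, 6 were closest to the stimulated library of their own number. With these numbers as a replicate block Irg1 was at 2.64, 2.30 and 2.47 in controls, LTβRΔN neutrophils and over both genotypes, still called, and Pdhb (-0.032), Dlat (-0.31) and Cpt2 (-0.062) turned, none called. Depth limits the 4 genes with a mean under 30 counts most, with 95% half-widths of 1.89 to 3.81 on the log2 scale.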
